A study of Mus musculus with 16 samples.

Results

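Described here are 10 genes of the epithelial-to-mesenchymal transition (EMT), measured in single cells of mouse mammary tumours. They are 7 transcription factor genes (Snai1, Snai2, Zeb1, Zeb2, Twist1, Twist2 and Prrx1) and 3 genes for mesenchymal cell proteins (Cdh2, Fn1 and Vim), picked by name from the 23467 genes counted. All 10 were counted, with 82 UMIs for Twist2 and 16916 for Vim at the ends of the range over all kept cells. The comparison asked whether WB1P-Myc cells of the epithelial-like and Schwann-like clusters without RNA of Epcam, the epithelial cell adhesion molecule, carry these genes as fibroblasts do.

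EMT is a change in which epithelial cells lose junctions and polarity and take on features of mesenchymal cells. SNAI1 and SNAI2 (Snail and Slug) and ZEB1 and ZEB2 are zinc finger proteins that bind E-box sequences and repress epithelial genes. TWIST1 and TWIST2 are basic helix-loop-helix factors and PRRX1 is a homeodomain factor, and all 3 are at work in embryonic mesenchyme. Cdh2 encodes N-cadherin, Fn1 encodes the matrix protein fibronectin, and Vim encodes the intermediate filament protein vimentin. The same genes are active in cells that never were epithelial, and fibroblasts of the stroma are the usual reference for them. Zeb2 and Cdh2 are also known from neural crest and glial cells.

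The data are 8 Drop-seq count tables from the HiSeq run, 4 droplet fractions for each of 2 mouse models of BRCA1-deficient mammary cancer. The genotype of WB1P is WapCre;Brca1F/F;Trp53F/F, so that Cre driven by the Wap promoter deletes Brca1 and Trp53 in the mammary gland. WB1P-Myc mice are WapCre;Brca1F/F;Trp53F/F;Myc and carry in addition a Myc construct that Cre turns on. The labels give mammary gland as the tissue and no treatment for either model, and live dapi-negative singlets were sorted before capture. Each model stands for 2 mice with end-stage tumours, whose cells the tables do not separate, so each model is 1 sample and its 4 droplet fractions give a technical spread. Ages are not in the labels. The suspensions of the models were prepared and run as separate samples, and model and suspension cannot be told apart. With 1 sample per model there is no test, and all intervals are 95%, exact and for counting error only. Where a count was 0, the upper limit given is that of a floor of 3 counts over the group.

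Of 1000 barcodes per table, between 65 and 950 were kept as cells, 1307 from WB1P and 3491 from WB1P-Myc, with medians of 1724 and 2359 UMIs per cell. WB1P fraction 1 was by far the smallest, with 256985 UMIs in its table and 65 cells, and it held only 2 fibroblast-like and 2 macrophage-like cells. The kept cells of different tables shared 1 barcode over all 28 pairs of tables. Clusters were computed without the 10 genes and named from marker lists. The WB1P-Myc cells fell into epithelial-like (1138 cells), Schwann-like (1055), macrophage-like (702), fibroblast-like (274) and endothelial-like (71) classes. A cluster of 251 WB1P-Myc cells got no name and is called here by its leading gene, Dlk1. WB1P had no Schwann-like cell among its 1307 cells, which allows a share of up to 0.230%. The fibroblast-like cells of WB1P-Myc carried all 11 fibroblast markers, which summed to 47604 counts per 1000000 UMIs (CPM), and the Schwann-like cells were led by Sox10 and Mbp.

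Epcam-low cells were the 1465 WB1P-Myc cells of the epithelial-like and Schwann-like clusters with no Epcam UMI, 953 of them Schwann-like and 512 epithelial-like. The 728 cells of the same clusters with at least 1 Epcam UMI were the Epcam-positive cells. A count of 0 for Epcam depends on depth, and the medians were 2316 UMIs in Epcam-low and 3533 in Epcam-positive cells. Myc was counted at 126 CPM in Epcam-low cells, 189 in Epcam-positive cells, 96.8 in fibroblast-like cells and 27.0 in macrophage-like cells. The origin of the Schwann-like cells was not tested. Pooled Epcam-low cells carried 3092 CPM of the 10 Schwann markers, 305 of the 12 epithelial markers (214 to 356 over the fractions, Epcam at 0), 528 of the 11 fibroblast markers (417 to 676) and 231 of the macrophage markers (145 to 371). In this set the share of Schwann-like cells and the level of a gene per cell cannot be told apart in the pooled value, so both clusters are also given alone.

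Each gene had its own distribution over the WB1P-Myc classes. Snai1, Twist1, Twist2, Prrx1 and Fn1 were highest in the fibroblast-like cells. Zeb1, Snai2 and Vim were highest in the endothelial-like cells, Zeb2 in the macrophage-like cells and Cdh2 in the Schwann-like cells. The 71 endothelial-like cells carried all 10 endothelial markers at 4968 CPM, but also 1908 CPM of the 9 pericyte markers (1121 to 4364 over the fractions, against 853 in fibroblast-like cells) and 997 CPM of fibroblast markers (427 to 2619, with 8 of 11 counted), and 50.7% of them had markers of another class. The part of these in the endothelial-like levels was not tested. The intervals of neighbours in that order overlapped between fibroblast-like and endothelial-like cells for Snai1, Snai2 and Zeb1, and between fibroblast-like and Dlk1-led cells for Twist2. They did not overlap between the first and the second class for Zeb2, Twist1, Prrx1, Cdh2, Fn1 and Vim. The fractions overlapped all the same for Twist1 and Vim. For Vim, only endothelial-like fraction 3, with 9 cells, lay above all the fibroblast-like fractions. Further down, Twist1 ran from Dlk1-led to endothelial-like and epithelial-like cells, which overlapped, and then to Schwann-like and macrophage-like cells, which also overlapped. Fn1 ran from Schwann-like to macrophage-like cells and then to epithelial-like and endothelial-like cells, which overlapped, with Dlk1-led cells last. Vim ran from fibroblast-like to Schwann-like and macrophage-like cells, which overlapped, and then to Dlk1-led and epithelial-like cells.

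**Figure D1:**
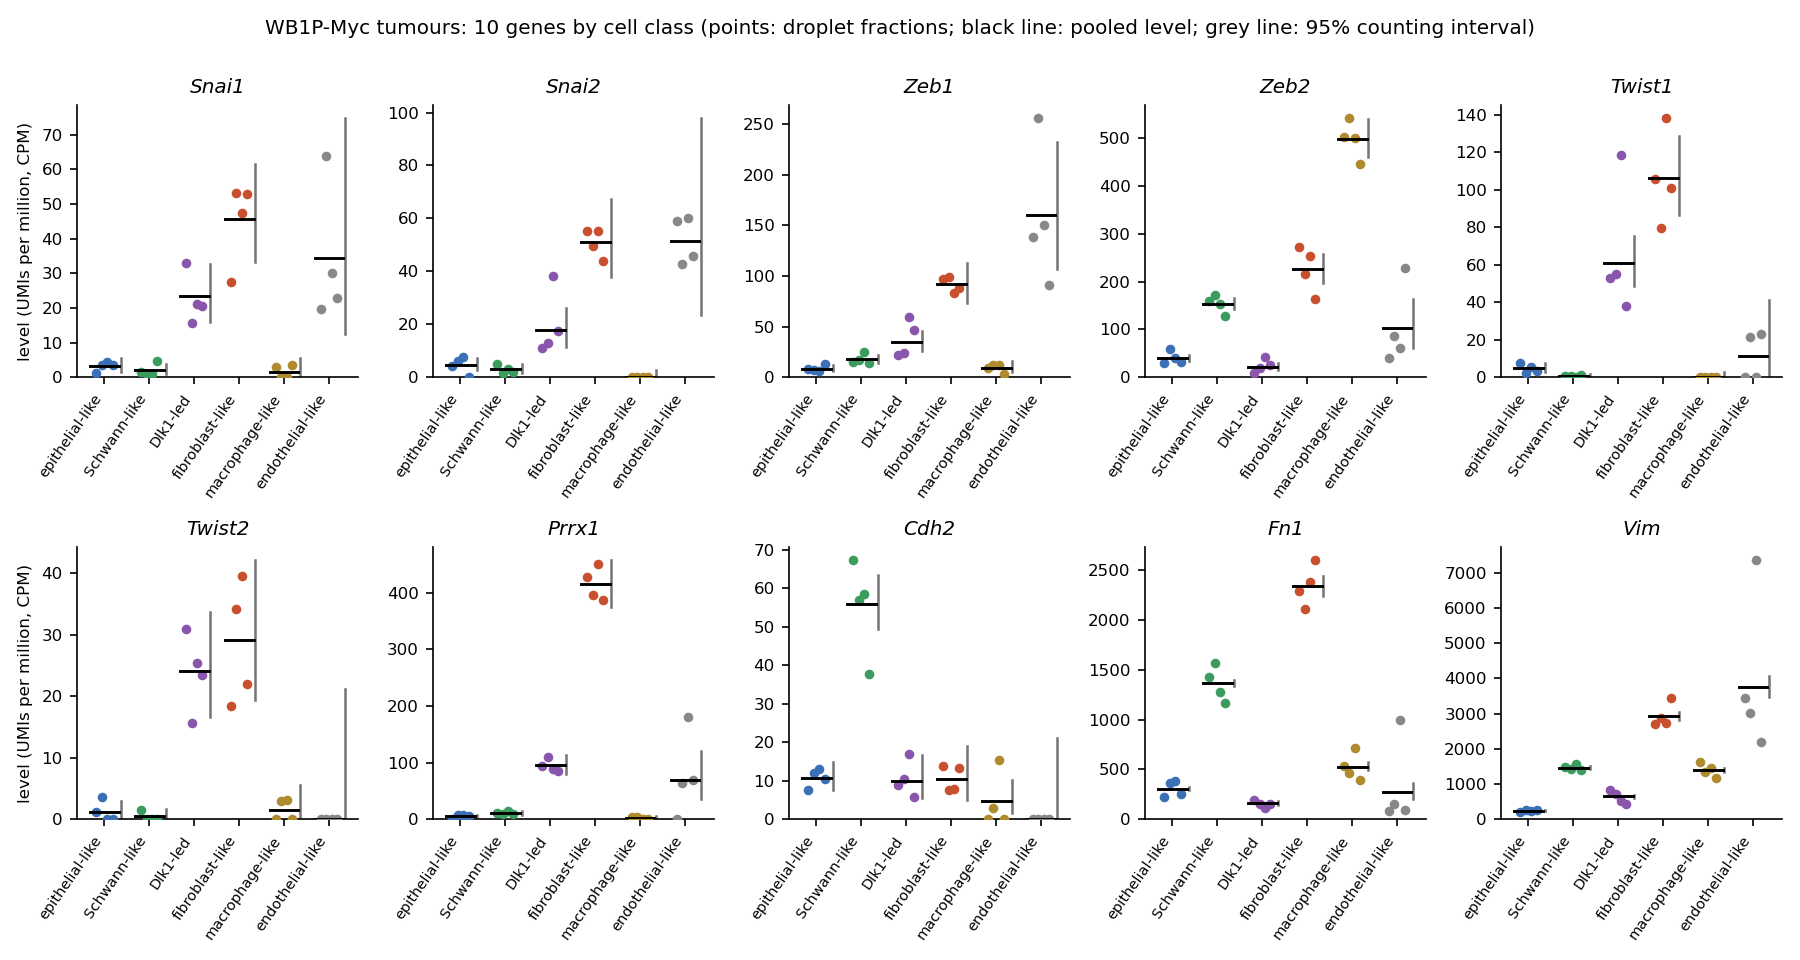
Levels of the 10 genes in 6 WB1P-Myc cell classes, in CPM (vertical axes, linear, each gene on its own scale). Points are the 4 droplet fractions, black lines the pooled level and grey lines its 95% counting interval. Prrx1 stands at 415 CPM in fibroblast-like cells and 11.0 in Schwann-like cells, while Cdh2 stands at 10.4 and 56.1.

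The mesenchymal transcription factor genes of fibroblasts were low in Epcam-low cells as defined here. Twist1 was 56.5-fold, Prrx1 42.3-fold and Snai1 15.7-fold lower than in WB1P-Myc fibroblast-like cells. Zeb2, Fn1 and Vim stood much nearer to the fibroblast level, and Cdh2 was 5.24-fold higher. The size of these differences depends on leaving out the Dlk1-led cluster, in which 19.5% of cells had an Epcam UMI. With its cells without Epcam added, the log2 ratio went from -5.82 to -3.07 for Twist1, from -5.12 to -2.46 for Twist2, from -5.40 to -3.95 for Prrx1, from -3.97 to -2.78 for Snai1 and from -3.54 to -2.86 for Snai2, and 8 genes were called lower, Fn1 (-1.14) among them. By the rule used throughout, a gene was called when it differed at least 2-fold with its counting interval on one side of 0 on the log2 scale. Of the 10 genes, 1 was higher and 7 were lower in Epcam-low cells, against 24.1% higher and 15.4% lower among 9119 genes with at least 50 UMIs in both classes together. The median log2 ratio was -2.99 over the 10 genes and 0.32 over all those genes. The median of 0.32 covers only genes that passed the minimum of 50 UMIs, and its source was not tested. Scaling by TMM or DESeq2 factors shifted the ratios of this comparison by -0.05 and -0.10.

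Twist1 was counted at 106, 79.9, 138 and 101 CPM in fibroblast-like cells of WB1P-Myc fractions 1 to 4, and at 2.13, 2.36, 1.06 and 1.72 CPM in Epcam-low cells. The log2 ratio was -5.82 (-6.99 to -4.84), from 102 and 9 UMIs. Every fibroblast fraction lay far above every Epcam-low fraction. Its paralogue Twist2 stood at 18.4, 34.2, 39.5 and 22.0 CPM in fibroblast-like and 1.42, 1.57, 0 and 0 CPM in Epcam-low cells, a log2 ratio of -5.12 (-7.10 to -3.61) that rests on 4 UMIs on the Epcam-low side and became -5.77 without WB1P-Myc replicate 1. Only 28 UMIs were counted in fibroblast-like cells, so Twist2 was under the minimum of 50 UMIs set for the background share.

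Prrx1, a marker of mesenchymal progenitors in limb and craniofacial tissue, was counted at 428, 396, 450.2 and 387 CPM in the 4 fibroblast fractions and 11.3, 11.0, 9.58 and 6.86 CPM in the Epcam-low fractions. The groups did not come near each other, and the log2 ratio was -5.40 (-5.87 to -4.96). Snai1 stood at 27.6, 53.3, 47.4 and 52.8 CPM in fibroblast-like cells against 1.42, 2.36, 2.13 and 6.01 in Epcam-low cells, with a log2 ratio of -3.97 (-4.95 to -3.07). Snai2 stood at 55.2, 49.4, 55.3 and 44.0 CPM against 4.96, 4.71, 6.39 and 1.72, with -3.54 (-4.35 to -2.78). For both Snail genes the lowest fibroblast fraction was above the highest Epcam-low fraction.

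The ZEB genes parted from each other. Zeb1 was lower in Epcam-low cells, with 96.6, 98.9, 82.9 and 88.0 CPM in the fibroblast fractions and 17.0, 18.1, 12.8 and 18.9 CPM in the Epcam-low fractions, a log2 ratio of -2.44 (-2.89 to -1.98). Zeb2 differed by less than 2-fold, with 271, 217, 253 and 163 CPM in fibroblast-like and 162, 176, 165 and 123 CPM in Epcam-low cells. Its log2 ratio was -0.53 (-0.75 to -0.30) and was not called, and the highest Epcam-low fraction lay above the lowest fibroblast fraction. Zeb2 was counted in 30.4% of Epcam-low and 43.8% of fibroblast-like cells, and in 8.38% of Epcam-positive cells, which were deeper (median 3533 UMIs) than both. With every cell thinned to 600 UMIs the shares were 10.1%, 9.49% and 1.37%, and the Zeb2 ratio of Epcam-low to fibroblast-like cells was 0.06.

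Of the 3 effector genes, Cdh2 was the one that Epcam-low cells held above fibroblasts. N-cadherin RNA stood at 63.1, 52.6, 62.8 and 39.5 CPM in the Epcam-low fractions and 13.8, 7.61, 7.90 and 13.2 CPM in the fibroblast fractions. No fractions overlapped and the log2 ratio was 2.39 (1.49 to 3.47), with only 10 UMIs on the fibroblast side. Fn1 stood at 1378, 1303, 1220.3 and 1100.0 CPM in Epcam-low cells against 2286, 2107, 2382 and 2605 CPM in fibroblast-like cells. Its log2 ratio of -0.89 (-0.96 to -0.82) was not called, although no fractions overlapped, and it moved to -2.03 when the 571 Epcam-low and 60 fibroblast-like cells with at least 2 UMIs of another class's markers were left out. Vim stood at 1429, 1246, 1341 and 1219 CPM against 2709, 2887, 2737 and 3445 CPM and was called lower, with -1.16 (-1.23 to -1.10), and with -1.73 when the same cells were left out. Leaving these cells out took 43.8% of the Schwann-like and 30.1% of the epithelial-like Epcam-low cells. Fibroblast markers, collagens among them, were used for it, so it selects on mesenchymal genes and cannot serve as a check on RNA from other cells.

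**Figure D2:**
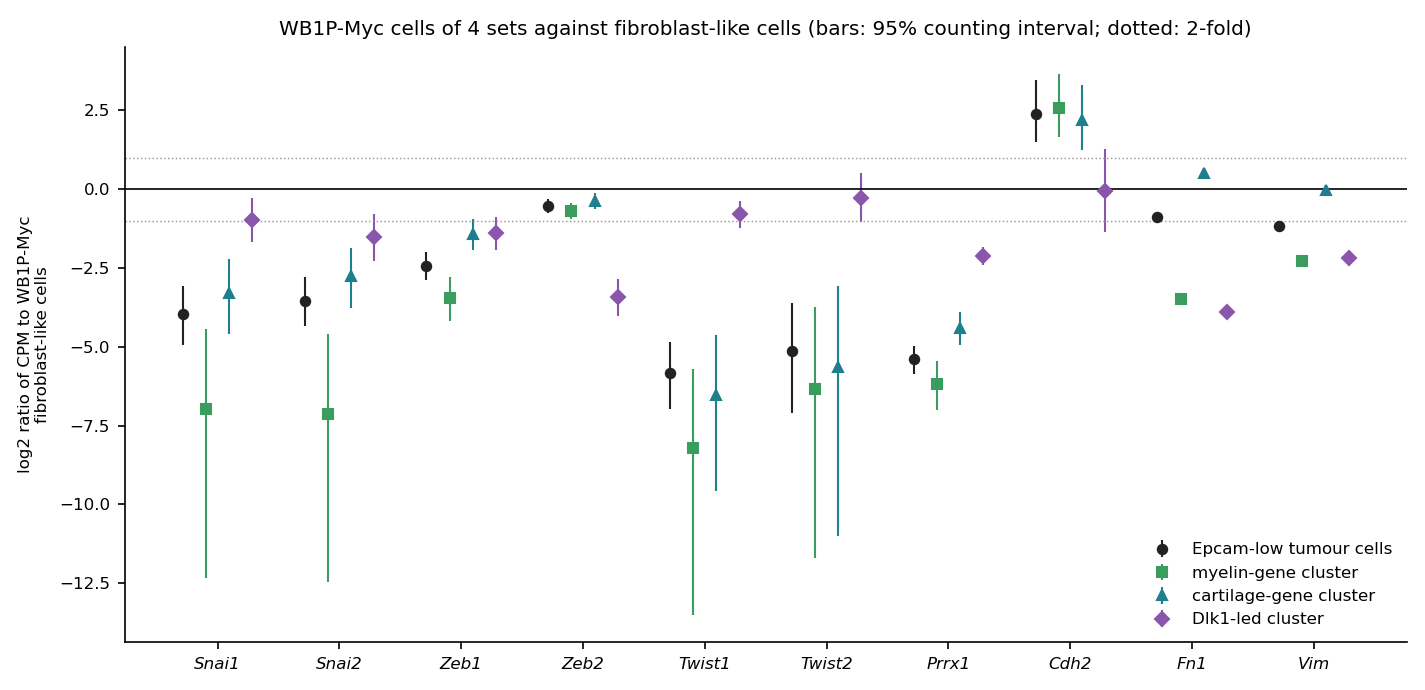
Log2 ratio of CPM (vertical axis) of each of the 10 genes in 4 sets of WB1P-Myc cells over WB1P-Myc fibroblast-like cells. Bars are 95% counting intervals and dotted lines mark 2-fold. Cdh2 lies above 0 for Epcam-low cells and for the myelin-gene and cartilage-gene clusters, and the Twist and Snai genes lie nearest to 0 in the Dlk1-led cluster (Twist2 at -0.28).

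The classes also differed in the share of single cells with these genes, once all cells were thinned to 600 UMIs. A UMI of any of the 6 transcription factor genes other than Zeb2 was found in 31.8% (26.3 to 37.6) of WB1P-Myc fibroblast-like cells and 3.14% (2.31 to 4.17) of Epcam-low cells. The share was 0.712% (0.232 to 1.65) in macrophage-like cells, given as cells of another lineage, at a median of 1493 UMIs before thinning. That they lack these genes was not tested, and Zeb1 stood at 9.25 CPM in them and 8.50 CPM in epithelial-like cells of WB1P-Myc. It was 1.92% (1.06 to 3.21) in Epcam-positive cells. Vim and Fn1 were found together in 49.3% of fibroblast-like, 17.1% of Epcam-low and 4.12% of Epcam-positive cells. Vim together with one of the 6 factors was found in 23.0% of fibroblast-like and 1.57% of Epcam-low cells. Of the Epcam-low cells, 1 had fewer than 600 UMIs and was left out of these shares.

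Droplets can carry free RNA from other cells, and the collagen genes Col1a1, Col1a2 and Col3a1 were used to set how much fibroblast RNA each class could hold. Their summed level in Epcam-low cells was 0.845% of that in fibroblast-like cells. RNA of fibroblast make-up at that level would bring 4.29 Twist1 and 1.18 Twist2 UMIs, and 9 and 4 were counted, with Poisson intervals that include the computed values. Snai1 had 14 against 1.85 UMIs computed, Snai2 21 against 2.06 and Prrx1 47 against 16.8, all above it. The excess was far larger for Zeb2 (750 against 9.13), Cdh2 (261 against 0.421), Fn1 (6032 against 94.5) and Vim (6282 against 119). The counts of Twist1 and Twist2 in Epcam-low cells were above the computed values but within counting error. So few UMIs cannot place them at that level or apart from it. RNA from other classes, such as the Dlk1-led cells, was not part of the computed values, and the source of these counts was not tested.

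**Figure D3:**
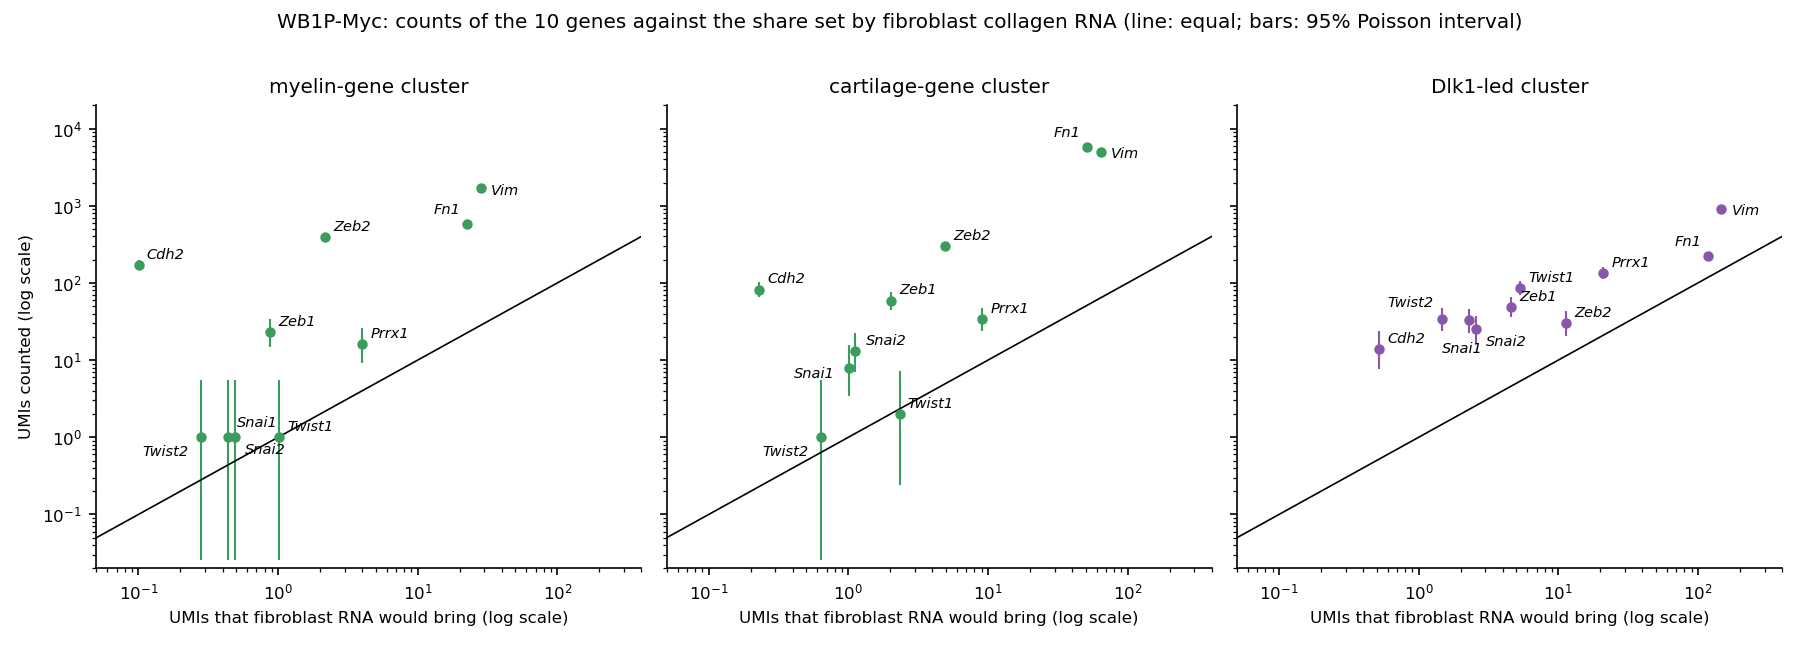
UMIs counted for each of the 10 genes (vertical axis, log scale) against the UMIs that fibroblast RNA would bring at the collagen level of the cluster (horizontal axis, log scale), in 3 WB1P-Myc clusters. Bars are 95% Poisson intervals and the line marks equal numbers. Twist1 lies near the line in the myelin-gene and cartilage-gene clusters and well above it in the Dlk1-led cluster (86 against 5.33 UMIs).

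The Schwann-like cells, which make up most of the Epcam-low set, split at clustering resolution 0.6 into a cluster of 525 cells led by myelin genes (Mag and Mbp among them) and a cluster of 481 cells led by cartilage matrix genes (Hapln1, Acan and Col2a1). Of these, 524 and 457 came from the Schwann-like cluster. Each held 0 of 1307 WB1P cells, which allows a share of up to 0.230%, and the Schwann markers summed to 4157 and 2097 CPM. The 10 genes differed between them. Fn1, Vim and Zeb1 were all higher in the cartilage-gene cluster, Vim 4.75-fold and Zeb1 4.12-fold. In all, 6 of the 10 were higher and none lower, 4 of them among the 6 genes with at least 50 UMIs, against 12.6% higher and 9.52% lower among 8012 genes. The cartilage-gene cells had a median of 2776 UMIs and the myelin-gene cells 4459, and fibroblast markers summed to 934 CPM (869.7 to 1098 over fractions) against 176 (124 to 264), the part of which in these differences was not tested beyond the collagen-based counts.

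Among the genes with at least 50 UMIs, fibronectin showed the widest gap. Fn1 stood at 3483, 4042, 2682 and 3093 CPM in the 4 fractions of the cartilage-gene cluster, above all 4 fibroblast fractions, and at 179, 249, 239 and 178 CPM in the myelin-gene cluster. The log2 ratio between the clusters was 4.00 (3.88 to 4.13). Vim stood at 2889, 2982, 2759 and 2844 CPM in the cartilage-gene and 596, 533, 691 and 615 CPM in the myelin-gene cluster, with 2.25 (2.17 to 2.33). Against fibroblast-like cells the Vim ratio of the cartilage-gene cluster was -0.03 (-0.10 to 0.03) and the Fn1 ratio 0.51 (0.44 to 0.58), neither of which was called. Vim and Fn1 were found together in 42.8% of thinned cartilage-gene cells and 3.81% of thinned myelin-gene cells. The Fn1 and Vim values of the pooled Epcam-low cells average over these clusters.

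Zeb2 and Cdh2 were shared by both clusters. Zeb2 stood at 172, 173, 176 and 169 CPM in the cartilage-gene and 149.8, 165, 131 and 110.0 CPM in the myelin-gene fractions, with a log2 ratio of 0.30 (0.08 to 0.52). Cdh2 stood at 62.9, 44.6, 42.3 and 33.3 and 70.1, 64.1, 70.0 and 42.0 CPM, with -0.38 (-0.78 to 0.01). Neither was called. Cdh2 was above the fibroblast level in both clusters, by 4.55-fold in the cartilage-gene and 5.92-fold in the myelin-gene cluster.

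The other factors were low in both clusters. Snai1, Snai2, Twist1 and Twist2 had 1 UMI each in the 525 myelin-gene cells. In the 481 cartilage-gene cells Snai1 had 8 UMIs, Snai2 13, Twist1 2 and Twist2 1. Zeb1 reached 25.9, 37.2, 42.3 and 33.3 CPM in the cartilage-gene fractions against 9.67, 5.70, 12.6 and 5.79 in the myelin-gene fractions, with a log2 ratio of 2.04 (1.32 to 2.80). Prrx1 stood at 19.7 against 5.76 CPM. Compared with fibroblast-like cells, 1 of the 10 genes was higher and 6 were lower in the cartilage-gene cluster (background 16.2% and 13.4% of 6597 genes), and 1 was higher and 8 were lower in the myelin-gene cluster (background 27.9% and 18.8% of 7585 genes). Collagen RNA stood at 1.27% of the fibroblast level in the cartilage-gene and 0.346% in the myelin-gene cluster, and the Prrx1 counts were 34 against 9.09 and 16 against 3.99 UMIs computed from it.

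The Dlk1-led cluster had the reverse pattern, with Twist1, Twist2, Snai1 and Prrx1 but little Fn1 or Zeb2. Its leading genes were Dlk1, Slc38a4, Gap43 and Mest, 19.5% of its cells had an Epcam UMI, and it was deep, with a median of 4618 UMIs. Twist1 was 12.6-fold, Twist2 21.2-fold, Prrx1 18.7-fold and Snai1 7.50-fold higher than in WB1P-Myc epithelial-like cells. Of the 10 genes 7 were higher and none lower, 4 of them among the 7 genes with at least 50 UMIs, against 4.98% higher and 11.9% lower among 8148 genes. The cluster was not counted among the Epcam-low cells, since it passed no naming rule. The epithelial markers summed to 397 CPM, the 11 fibroblast markers, all of them counted, to 1817 (1438 to 2299 over fractions) and the Schwann markers to 70.8, with Foxd3 and Cdh19 at 0. Myc stood at 214 CPM.

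Twist1 stood at 52.9, 55, 119 and 38.2 CPM in the fractions of the Dlk1-led cluster, and the highest of these was above 3 of the 4 fibroblast fractions. Twist2 stood at 30.9, 15.7, 25.4 and 23.5 CPM, with 3 of the 4 fractions within the range of the fibroblast fractions and 1 below it. Snai1 stood at 33.1, 15.7, 21.2 and 20.5 CPM, with its highest fraction above the lowest fibroblast fraction. The log2 ratios to fibroblast-like cells were -0.80 (-1.23 to -0.37) for Twist1, -0.28 (-1.04 to 0.50) for Twist2 and -0.97 (-1.67 to -0.29) for Snai1, and none of them reached 2-fold. Prrx1 stood at 94.8, 110.0, 88.9 and 85.1 CPM and was called lower than in fibroblast-like cells, with -2.12 (-2.41 to -1.83).

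Fn1 and Zeb2 were low in this cluster, Vim lay between the epithelial-like and the fibroblast-like level, and Cdh2 overlapped the fibroblast level. Fn1 stood at 189.6, 154, 110.1 and 153 CPM in the Dlk1-led cluster, 14.8-fold under the fibroblast-like cells, and its level was also below that of the epithelial-like cells (306 CPM), a difference that was not called. Vim stood at 818, 717, 521 and 432 CPM and Zeb2 at 8.82, 18.3, 42.3 and 26.4 CPM, both called lower than in fibroblast-like cells. In that comparison none of the 10 genes was higher and 6 were lower, with a background of 23.5% higher and 24% lower among 5875 genes. Against Schwann-like cells 5 were higher (Twist1, Twist2, Snai1, Prrx1 and Snai2) and 4 lower (Fn1, Zeb2, Cdh2 and Vim), with a background of 6.35% and 17.5% of 8847 genes. Collagen RNA was at 3.55% of the fibroblast level in these cells, and the counts of Twist1 (86 against 5.33 UMIs computed), Twist2 (34 against 1.46), Snai1 (33 against 2.30) and Prrx1 (135 against 20.8) were above it.

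Set against the Epcam-positive cells, Epcam-low cells had more Zeb2, Cdh2, Vim and Fn1 RNA in the pooled counts, and no difference was called for the other 6 genes. The sets mix the clusters in unlike shares, since 953 of the 1465 Epcam-low cells were Schwann-like while 626 of the 728 Epcam-positive cells were epithelial-like. The Schwann markers summed to 3092 CPM (2720 to 3599 over the fractions) in Epcam-low and 811 CPM (609 to 1026) in Epcam-positive cells, and the epithelial markers to 305 and 2928 CPM. The share of Schwann-like cells and the level per cell cannot be told apart in these pooled ratios. The 4 genes called higher stand against a background of 8.66% higher and 4.42% lower among 9843 genes, and the median log2 ratio was 0.82 over the 10 genes and 0.03 over all. Zeb2 stood at 162, 176, 165 and 123 CPM in the Epcam-low fractions and 23.5, 24.8, 33.7 and 25.4 in the Epcam-positive fractions, a log2 ratio of 2.53 (2.21 to 2.86). Cdh2 stood at 13.4, 10.2, 11.2 and 4.01 CPM in the Epcam-positive fractions, with a ratio of 2.45 (1.92 to 3.02). Every Epcam-low fraction was above every Epcam-positive fraction for both genes.

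Vim and Fn1 also did not overlap. Vim stood at 238, 332, 501 and 382 CPM and Fn1 at 267, 586, 484 and 229.6 CPM in the Epcam-positive fractions, and the log2 ratios were 1.84 (1.75 to 1.92) and 1.70 (1.61 to 1.78). Zeb1, at 16.9 against 8.77 CPM, had a ratio of 0.95 (0.32 to 1.61) that was under 2-fold, and it was 2.06 without WB1P-Myc replicate 3, whose Epcam-positive cells had 19.4 CPM. Prrx1 likewise had a ratio of 0.63 (-0.14 to 1.44), and 1.52 without that replicate. Twist1 stood at 1.88 and 3.33 CPM, from 9 and 11 UMIs. Its ratio of -0.82 (-2.27 to 0.59) was not called, and it was called lower in cells with at least 2000 UMIs (-2.13), without the shallow cluster led by Lars2 (-2.21) and with the whole Schwann-like cluster as the Epcam-low set (-2.87).

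Schwann-like cells had 6 of the 10 genes higher than WB1P-Myc epithelial-like cells (Zeb1, Zeb2, Prrx1, Cdh2, Fn1 and Vim) and 1 lower (Twist1), with a background of 11.3% and 7.36% of 9843 genes. Their ratio to fibroblast-like cells was again higher for 1 gene and lower for 7, with a background of 24.2% and 15.2% of 8897 genes. WB1P-Myc epithelial-like cells had 9 of the 10 genes lower than fibroblast-like cells and none higher (background 18.8% and 25.9% of 8326 genes), with Vim at 191, 263, 219 and 265 CPM. Cdh2 was the exception, with 10.8 CPM in epithelial-like and 10.4 in fibroblast-like cells.

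Within the epithelial-like cluster alone, Epcam-low cells were higher than Epcam-positive cells for 6 of the 10 genes and lower for none. Only 3 members had 50 UMIs there, and all 3 were called, against 5.08% higher and 2.82% lower among 7085 genes. Zeb2 stood at 116, 172, 158 and 92.4 CPM in the Epcam-low and 9.47, 16.4, 9.48 and 9.55 in the Epcam-positive epithelial-like fractions. Fn1 stood at 621, 886, 1166 and 607 and 125, 169, 187 and 127 CPM. At resolution 0.6, 613 of the 1145 cells of the main WB1P-Myc epithelial-like cluster fell into a shallow cluster led by Lars2, with a median of 1177 UMIs. The Epcam-low epithelial-like cells were shallow too, with a median of 1221 UMIs against 3216 and a median mitochondrial share of 5.32% against 2.64%, and the collagen genes were higher in them as well (Col1a1 by 4.45-fold). Markers of other classes were also higher, with 1268 against 353 CPM for the Schwann markers (894 to 1707 and 319 to 394 over the fractions), 427 against 199 for the macrophage markers (289 to 576 and 92.0 to 299), 924 against 244 for the fibroblast markers and 86.9 against 24.0 for the neutrophil markers. Schwann-like and macrophage-like cells are classes that hold Zeb2. The part of depth and of RNA from other cells in this difference was not tested.

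Between the models, the epithelial-like cells of WB1P had the higher levels of 5 of the 10 genes, and of Epcam. Twist1 was 11.5-fold, Snai1 9.12-fold, Prrx1 7.98-fold, Fn1 3.39-fold and Vim 2.39-fold lower in WB1P-Myc, and none was higher at the main settings. The background was 15.7% lower and 15.5% higher among 8789 genes. Different clusters hold the class in each model, cluster 1 with 1129 WB1P-Myc cells and cluster 4 with 659 WB1P cells, and the Dlk1-led cluster was not part of it.

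Twist1 stood at 11.2, 60.0, 66.1 and 47.6 CPM in the WB1P epithelial-like fractions and 7.68, 2.39, 5.38 and 3.51 CPM in the WB1P-Myc fractions, a log2 ratio of -3.52 (-4.35 to -2.78). Snai1 stood at 11.2, 31.3, 20.2 and 34.2 and 1.10, 3.59, 4.31 and 3.51 CPM, with -3.19 (-4.27 to -2.25). Prrx1 stood at 33.6, 49.1, 20.2 and 49.0 and 1.10, 7.18, 7.54 and 4.68 CPM, a 7.98-fold difference (interval of the log2 ratio -3.82 to -2.25). None of these fractions overlapped between the models, although WB1P fraction 1, with 60 epithelial-like cells, was the lowest WB1P value for Twist1 and Snai1. Without that fraction the log2 ratios were -3.58 for Twist1, -3.23 for Snai1 and -3.01 for Prrx1. Fibroblast markers summed to 1163 CPM in WB1P (938 to 1326 over the fractions) and 401 in WB1P-Myc epithelial-like cells (260.1 to 500.3), with all 11 markers counted in both. Fibroblast RNA at the collagen level of the WB1P cells would bring 1.51 Twist1, 0.891 Snai1, 7.06 Prrx1, 44.6 Fn1 and 46.7 Vim UMIs, where 113, 58, 83, 2118 and 1137 were counted. Cells with markers of another class made up 47.6% of WB1P and 31.9% of WB1P-Myc epithelial-like cells. Without them the Vim ratio was -0.66 and no longer called, 4 genes were lower and 1 was higher in WB1P-Myc. Fibroblast markers were among those used to leave cells out. Twist2 was not counted in the 675 WB1P epithelial-like cells, which allows up to 1.47 CPM.

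These ratios depended on which WB1P-Myc cells were called epithelial-like. At resolution 0.6 the class took in 250 of the 251 Dlk1-led cells, beside 277 cells of cluster 1, and the log2 ratios became -0.79 for Twist1, -1.26 for Snai1 and 0.19 for Prrx1, and that for Vim -0.56. Fn1 stayed lower, at -2.67. Twist2 had 4 UMIs in WB1P-Myc and 0 in WB1P epithelial-like cells, so that its ratio of -0.38 is a lower bound against the floor of 3 counts and gives no direction, and at resolution 0.6 it had 37 and 0 UMIs. Under 4 other settings (clustering with the members, at least 200 genes, no upper limit on genes, under 10% mitochondrial UMIs) Twist2 had 38 to 45 UMIs in WB1P-Myc and at most 1 in WB1P, and Prrx1 stood at -0.41 to -0.03, and under each of these 5 settings 2 genes were called higher in WB1P-Myc. With each cell weighted equally the Vim and Fn1 ratios were -0.45 and -0.91. Snai2 (3.06) and Zeb2 (2.11) then met the rule as higher in WB1P-Myc, where the pooled ratios were 1.21 and 0.85 and not called. That setting has no interval of its own, since the interval of the pooled counts was moved with the value. Snai2 had only 4 UMIs in WB1P epithelial-like cells at resolution 0.6. Set against fibroblast-like cells of their own model, WB1P epithelial-like cells had 7 of the 10 genes lower and none higher (background 13.1% and 23.7% of 6372 genes). The ratios of -0.45 (-0.96 to 0.09) for Twist1, -0.65 (-1.34 to 0.08) for Snai1 and -0.31 (-1.29 to 0.78) for Cdh2 were not called.

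**Figure D4:**
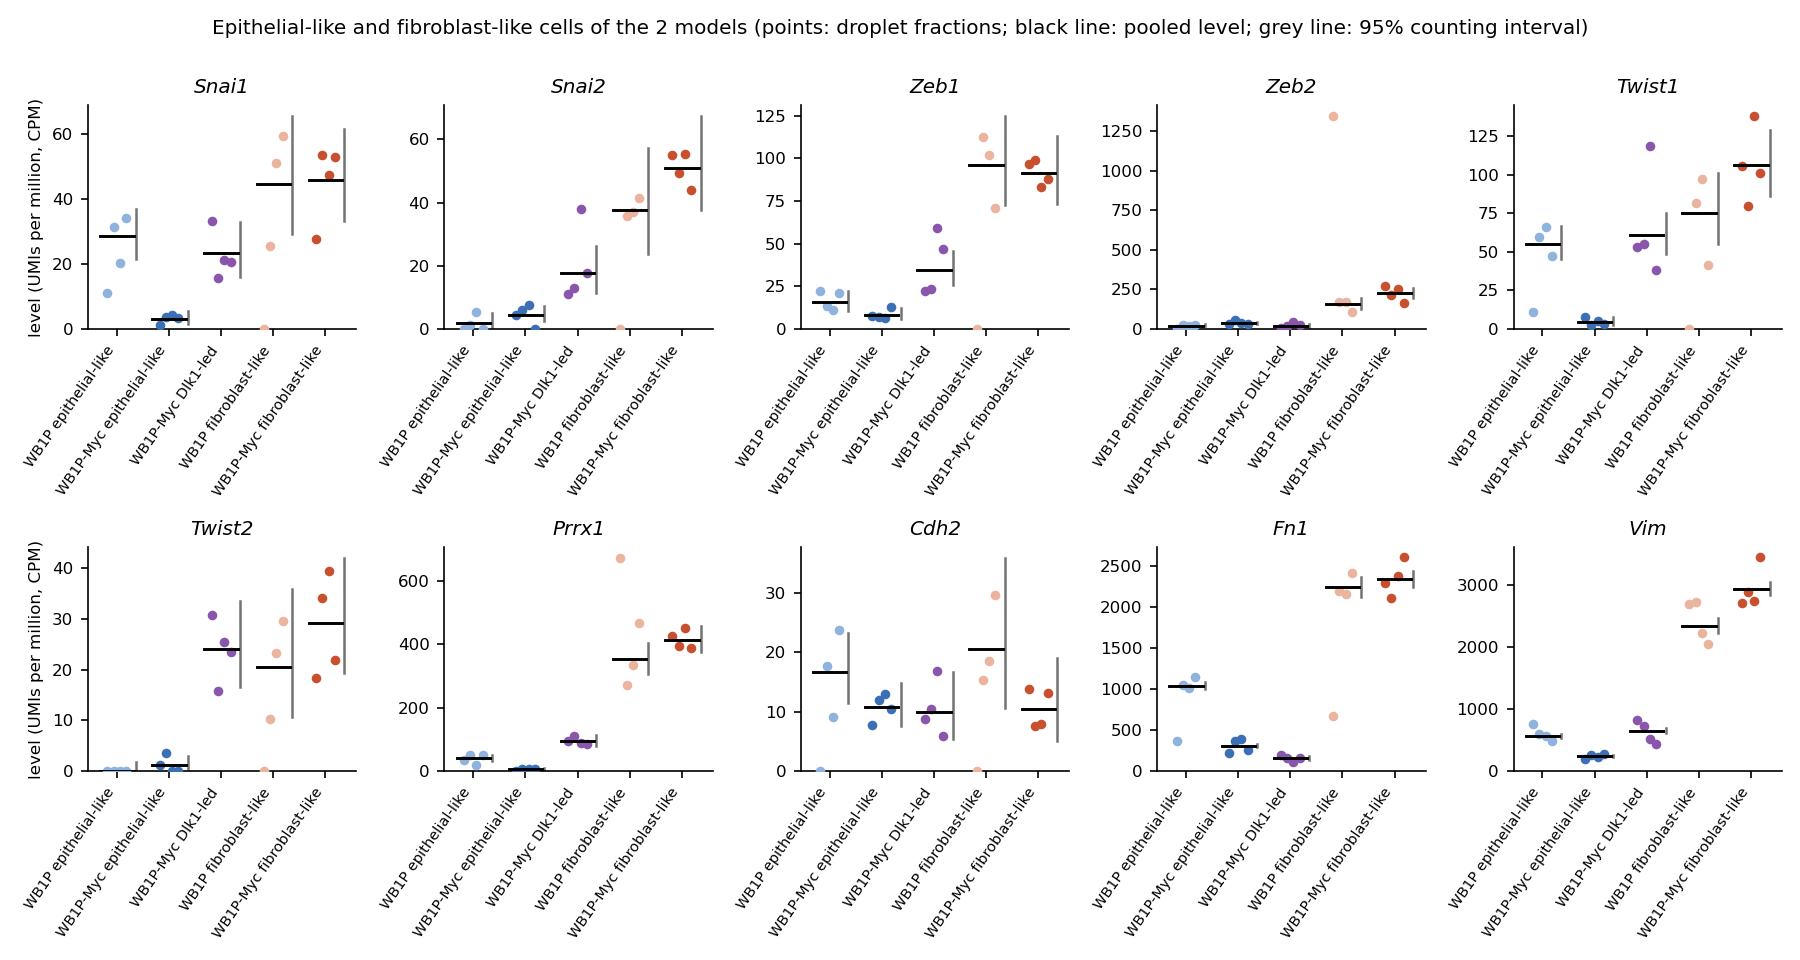
Levels of the 10 genes in CPM (vertical axes, linear, each gene on its own scale) in epithelial-like and fibroblast-like cells of both models and in the Dlk1-led cluster. Points are droplet fractions, black lines pooled levels and grey lines 95% counting intervals. Twist1 stands at 55.4 CPM in WB1P and 4.81 in WB1P-Myc epithelial-like cells, and the single Zeb2 point at 1348 is WB1P fraction 1 with 2 fibroblast-like cells.

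In fibroblast-like cells none of the 10 genes was called between the models, against 2.72% higher and 1.97% lower in WB1P-Myc among 4418 genes. The median log2 ratio was 0.28 over the 10 genes and 0.06 over all. Vim stood at 2939 CPM in WB1P-Myc and 2340.4 in WB1P, a log2 ratio of 0.33 (0.23 to 0.42). Zeb2 had 0.52 (0.16 to 0.88), Fn1 0.06 (-0.04 to 0.16) and Prrx1 0.23 (-0.01 to 0.48). The intervals of Twist2 (-0.52 to 1.61) and Cdh2 (-2.35 to 0.35) were wide and include 2-fold differences, so a difference of that size was not detectable for them with 217 and 274 cells.

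Between fibroblast states the number of genes called was near the background. The fibroblast-like cells of both models split into 207 cells named iCAF-like, for inflammatory cancer-associated fibroblasts, 259 myCAF-like cells, for myofibroblastic ones, and 25 unnamed cells. Snai2 stood at 27.2 CPM (15.6 to 44.2) in iCAF-like and 59.6 (44.9 to 77.6) in the myCAF-like cells. The log2 ratio between them was -1.13 (-2.03 to -0.31). Of the 10 genes, 1 (Snai2) was called lower and none higher, where 7.5% of 4358 genes were higher and 9.73% lower in iCAF-like cells. The call was lost with every cell thinned to 600 UMIs, without WB1P replicate 4 (-0.99) and without WB1P-Myc replicates 1 (-0.97) or 2 (-0.94). Pericyte markers moved with this split and summed to 88.4 CPM in iCAF-like cells (0 to 126 over the fractions, Higd1b and Mcam at 0) and 1258 CPM in myCAF-like cells (0 to 1650, all 9 counted). Without the cells that had a UMI of Rgs5, a pericyte gene, the Snai2 ratio was -1.18 and still called. Snai1 stood at 30.6 and 56.4 CPM, with -0.88 (-1.74 to -0.08), which was not called. It was called without WB1P-Myc replicate 3 (-1.15) or 4 (-1.09). The ratios of -0.08 (-0.32 to 0.17) for Prrx1, 0.23 (-0.28 to 0.73) for Zeb1, 0.10 (-0.25 to 0.45) for Zeb2 and 0.45 (-0.05 to 0.94) for Twist1 were not called either.

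Zeb2 and Vim were also genes of the immune and vascular cells. Macrophage-like cells held Zeb2 at 502, 542, 499 and 446 CPM in the WB1P-Myc fractions and 0, 233, 189 and 244 CPM in the WB1P fractions, the first of which had 2 cells. The log2 ratio was 1.18 (0.92 to 1.45) and Zeb2 was called higher in WB1P-Myc. Twist1 was called lower, with 0 and 4 UMIs and a ratio of -1.39 against a floor of 3 counts, so that 1 gene was higher and 1 lower against a background of 5.45% and 3.09% of 5174 genes. The Twist1 call rests on those 4 UMIs, and it was lost without WB1P replicate 3 or 4 and without WB1P-Myc replicate 1, 2 or 3, with ratios of -0.95 to -0.97 in the last 3. Fn1 stood at 528 and 715 CPM in WB1P-Myc and WB1P macrophage-like cells. Endothelial-like cells of WB1P-Myc had Vim at 3431, 3029, 7374 and 2196 CPM and Zeb1 at 138, 256, 150.5 and 91.5 CPM, and 44 cells named for T and NK cells at resolution 0.6 had Vim at 1785 CPM.

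The wider mesenchymal programme was lower in Epcam-low cells than in fibroblasts, but its genes stayed in the clustering. The fibroblast-like class was named mostly by collagens and other matrix genes. The direction of this list is therefore not independent of how that class was formed. A list of 22 other mesenchymal genes, matrix and contractile genes such as Sparc, Tagln and Acta2, had 21 lower and none higher in Epcam-low than in fibroblast-like cells, with a median log2 ratio of -4.31. Over all genes 24.1% were higher and 15.4% lower in this comparison, and the median was 0.32. Tagln (-7.15), Acta2 (-7.05) and Thy1 (-6.94) were lowest, and S100a4 (-0.80) was the gene not called. S100a4 stood at 311 CPM in the cartilage-gene cluster, 15.5 in the myelin-gene cluster and 187 in fibroblast-like cells. The pooled ratios average over these clusters. Of 25 other regulators of EMT, 20 had a value, and 2 were higher (Id1, 2.57, and Id2, 1.02) and 7 lower, so the number higher was below the share over all genes. The lowest were Tgfbr2 (-6.00), Tgfb3 (-3.07) and Tgfb1 (-2.32), genes of the TGF-beta receptor and its ligands. Smad3 had the same ratio as Tgfb1, with 16 UMIs in each class. Of 22 epithelial state genes, 10 had a value, 2 were higher (the splicing regulator Esrp1, 2.57, and the protease inhibitor Spint2, 2.10) and 1 was lower (Cdh3, -2.18), both near or below the shares over all genes.

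Against Epcam-positive cells, with their smaller share of Schwann-like cells, all 21 epithelial state genes with at least 20 UMIs over both sets were lower in the pooled Epcam-low cells. The median log2 ratio was -2.56 beside 0.03 over all genes, of which 8.66% were higher and 4.42% lower. Within the epithelial-like cluster alone, 11 of 20 such genes were lower and none higher, with a median of -1.13 beside -0.04 over all genes. Of the 7085 genes in that comparison 5.08% were higher and 2.82% lower. There the desmosome gene Dsp had a ratio of -0.88, beside -2.90 in the pooled sets. The cells were chosen for 0 Epcam UMIs, and the sparsest of these genes passed the minimum through the Epcam-positive cells (Tjp3 with 3 and 39 UMIs, Prss8 with 4 and 40, Ocln with 3 and 24), so the direction of this list is not independent of the choice of cells. Of the mesenchymal list, 21 genes had a value, and 9 were higher and none lower, with Bgn, Col6a1 (1.47) and Loxl1 (1.47) at the top and Cald1 (-0.79), Fbn1 (-0.51) and Cd44 (0.00) at the bottom. Fibroblast markers moved with this list, at 528 CPM (417 to 676) in Epcam-low and 299 CPM (240.2 to 384) in Epcam-positive cells, and their part in it was not tested. The list also differed between the cartilage-gene and myelin-gene clusters. Col5a2 (4.74), Col6a1 (4.57) and S100a4 (4.33) had the highest log2 ratios towards the cartilage-gene cells. Cdh11 (-1.05) and Acta2 (-0.47) had the lowest and were not called. The part of each cluster in the pooled list was not tested. Within the epithelial-like cluster, 14 of 18 mesenchymal genes were higher and none lower, beside 5.08% higher and 2.82% lower among 7085 genes. The fibroblast markers stood at 924 and 244 CPM there. Of the regulators, 20 had a value, and 2 were higher (the receptor kinase Axl, 2.17, and Tgfb3, 1.05) the number higher being near the share over all genes, and 5 lower, led by Foxq1 (-3.03), Sox9 (-1.71) and Foxc1 (-1.30).

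Over the 10 groups of model and class with at least 30 cells, the genes most like each member in log2(CPM + 10) were listed as a description, among 7934 genes with at least 200 UMIs. Mfap2 came nearest to Twist2 (Pearson r of 0.981), Ddr2, a collagen receptor, to Prrx1 (0.962) and Gas1 to Twist1 (0.948). Tab2 came nearest to Zeb2 (0.934), Nudt4 to Snai1 (0.974), Zfp948 to Snai2 (0.967) and Ly6c1 to Zeb1 (0.980). The nearest gene was 1810058I24Rik for Cdh2 (0.966), Vimp for Fn1 (0.946) and Anapc2 for Vim (0.932). The points share libraries and depths.

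Promoters of the epithelial genes were searched for the E-box CACCTG, or CAGGTG on the other strand, which SNAIL and ZEB proteins bind. The windows are the 300 bases from 250 before to 50 after the gene start in RefSeq (GRCm38.p6). Over all 32851 windows 20.2% held the motif. Of the 22 epithelial state genes only 12 had an entry, and of the 10 members only 6 (Snai2, Zeb1, Cdh2 and Fn1 had none), under the share of 80% at which a comparison over a list would hold, so that comparison is void. The 3 windows shown are those of Epcam, on which the groups rest, of Crb3, a polarity gene of the epithelial list with 4 matches, and of Snai1, the one member with a match. Capitals mark the motif, all are on the plus strand and 5′ to 3′, at chr17:87635729-87636028, chr17:57061951-57062250 and chr2:167537945-167538244. A match says only that the letters are there.
Epcam: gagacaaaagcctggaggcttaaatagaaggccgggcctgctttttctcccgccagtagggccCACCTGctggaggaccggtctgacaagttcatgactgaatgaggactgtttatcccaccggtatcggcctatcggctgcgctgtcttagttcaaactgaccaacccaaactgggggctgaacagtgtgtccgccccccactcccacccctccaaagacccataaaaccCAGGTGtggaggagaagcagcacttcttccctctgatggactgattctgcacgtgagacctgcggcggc
Crb3: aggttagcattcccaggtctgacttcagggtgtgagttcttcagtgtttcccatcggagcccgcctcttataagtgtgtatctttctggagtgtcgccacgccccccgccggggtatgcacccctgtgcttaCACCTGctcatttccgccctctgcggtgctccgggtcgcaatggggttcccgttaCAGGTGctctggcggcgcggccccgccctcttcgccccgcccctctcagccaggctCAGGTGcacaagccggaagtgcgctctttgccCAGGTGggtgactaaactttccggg
Snai1: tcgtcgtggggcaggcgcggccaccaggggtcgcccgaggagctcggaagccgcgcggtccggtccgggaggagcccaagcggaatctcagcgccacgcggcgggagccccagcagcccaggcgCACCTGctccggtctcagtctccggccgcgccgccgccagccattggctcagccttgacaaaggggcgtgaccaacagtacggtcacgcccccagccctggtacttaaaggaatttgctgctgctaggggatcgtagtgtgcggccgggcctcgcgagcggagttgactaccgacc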

How the data were processed

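Single cells were measured by Drop-seq. The deposited tables hold raw UMI counts per gene symbol and barcode, which the authors made with dropseq-tools, with mm10 named in the submitters' processing notes. Of 16 deposited tables the 8 HiSeq tables were used, and the 8 MiSeq tables served as a repeat run. Genes seen in at least 3 cells and barcodes with 450 to 4000 genes and under 20% mitochondrial UMIs were kept. Counts were scaled to 10000, log-transformed and clustered without the 10 genes (30 components, 20 neighbours, Leiden resolution 0.3; fibroblasts again with 40 components) in scanpy 1.11.5, igraph 0.11.9, scikit-learn 1.9.0 and numpy 2.4.6 under Python 3.11.15. A cluster was named from marker lists when at least 3 markers led it (seen in 10% or more of its cells, with a mean at least 2 times that elsewhere). No doublet caller was run, and leaving out cells with markers of another class was an alternative. Table totals ran from 256985 to 4960334 UMIs.

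Levels are pooled counts per 1000000 UMIs with exact Poisson intervals. Shares have Clopper-Pearson intervals and ratios conditional binomial ones (scipy 1.17.1), all 95% and for counting error only. A count of 0 took a floor of 3 counts over the group, and a ratio with both groups at or under 3 counts was not given. Calls need a 2-fold difference with the interval on one side of 0. For the mean over cells the interval of the pooled counts was moved with the value. Shares over all genes use genes with at least 50 UMIs over both groups, while counts of members also include members under it. The replicate numbers are droplet fractions of 1 suspension, so no test was run. TMM factors came from edgeR 4.0.16 and size factors from DESeq2 1.42.0, used for scaling only. Genes named from the other lists are the 3 highest and 3 lowest ratios with at least 20 UMIs, and of the 3 genes most like each member the first is given. The members, lists and comparisons were chosen with earlier results of these data known.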

Additional observations from a re-analysis of the deposited data

Results flagged for a closer look

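Of 55 sets of 4 droplet fractions examined, 6 had 1 fraction far from the other 3 by Dixon's criterion, and chance flags about 1 in 20 sets. WB1P fraction 1 gave 4 of them, with 2 fibroblast-like and 2 macrophage-like cells. In its fibroblast-like cells Snai2 was lowest at 0 CPM (35.9 to 41.5 in the other fractions), Zeb2 highest at 1348 CPM from 4 UMIs (107 to 172) and Fn1 lowest at 674 CPM (2163 to 2411). In its macrophage-like cells Vim was highest at 3413 CPM from 5 UMIs (633 to 931). Fn1 was highest in WB1P fraction 2 macrophage-like cells at 798 CPM (674 to 693), and in WB1P-Myc fraction 3 endothelial-like cells at 993 CPM from 33 UMIs in 9 cells (78.9 to 149). The pooled levels of the report weight cells by their UMIs, so fraction 1 adds little to the WB1P values.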

How the results depend on the processing

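No paired analysis was possible because no result comes from a test and each model is 1 sample. Of 1049 recomputed log2 ratios of the 10 genes under 24 settings, 253 moved by at least 1 SD over the fractions. Sign was compared only for ratios called at the main settings, and 4 of those changed sign. Ratios that were not called also crossed 0, such as Cdh2 in macrophage-like cells (0.03, and -0.61 without WB1P replicate 3). For Epcam-low against fibroblast-like cells, 7 or 8 genes were lower under every setting run but the MiSeq run, where 5 were lower and 0 higher. Adding the Dlk1-led cells with no Epcam UMI to the Epcam-low cells, a setting chosen after seeing the data, moved Snai1 to -2.78, Twist1 to -3.07, Twist2 to -2.46 and Prrx1 to -3.95. Fn1 was then past 2-fold (-1.14). For Epcam-low against Epcam-positive cells, 7 genes were higher with no upper limit on genes, and 1 was lower with the Schwann-like cluster as Epcam-low, with at least 2000 UMIs, or without the Lars2-led cluster, the last of these also chosen after seeing the data. For epithelial-like cells between models, 2 genes were higher at resolution 0.6, clustered with the members, with at least 200 genes, with no upper limit, under 10% mitochondrial UMIs and with the mean over cells. It was 1 after thinning or without cells with markers of another class, and 0 to 1 when leaving out 1 replicate. There 3 were lower at resolution 0.6, clustered with the members, with the mean over cells and after thinning, and 1 in the MiSeq run. Among ratios called at the main settings, those that changed sign were Prrx1 (0.19) at resolution 0.6 and Snai1 (3.07), Twist1 (1.86) and Prrx1 (2.90) in the MiSeq run. The last 3 give no direction, since the epithelial-like class of that run held 2 WB1P-Myc cells with 0 UMIs of each of these genes and the values come from the floor of 3 counts. For macrophage-like cells 2 genes were lower with at least 200 genes or the mean over cells, and 0 in the MiSeq run, after thinning and without cells with other markers, with 0 to 1 over left-out replicates. For iCAF-like against myCAF-like cells 0 were lower after thinning, and 0 to 2 over left-out replicates. The cause of these changes was not tested. Scaling by TMM or DESeq2 factors shifted all ratios together by less than 0.1 on the log2 scale, save for the macrophage-like comparison (-0.11 and -0.10), and changed no count of members by over 1.5 times. With no minimum of 50 UMIs, the genes called lower over the whole table rose from 1402 to 2524 for Epcam-low against fibroblast-like and from 435 to 985 for Epcam-low against Epcam-positive cells. Those called higher rose from 2196 to 2440 and from 852 to 1254. Against fibroblast-like cells the genes called lower then outnumbered those called higher, the reverse of the shares with the minimum. The genes called higher and lower rose from 1360 and 1379 to 2070 and 2234 for epithelial-like, from 120 and 87 to 371 and 370 for fibroblast-like, from 282 and 160 to 648 and 439 for macrophage-like, and from 327 and 424 to 840 and 866 for iCAF-like cells. Depth limits Twist2 (82 UMIs in all kept cells), Snai2 (141) and Snai1 (192) most.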
